A study of Homo sapiens with 9 samples.

Results

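High mobility group (HMG) proteins are small, abundant, non-histone chromatin proteins, and the genes described here belong to their 3 families, HMGB, HMGN and HMGA. The 9 listed genes were HMGB1, HMGB2, HMGB3, HMGN1, HMGN2, HMGN3, HMGN4, HMGN5 and HMGA1, found in the deposited expression table by identifier and symbol. Of these, 8 were found among 15436 genes and all 8 were abundant enough to test. HMGN3 is not analysed here. They were chosen by family name, with no threshold on a value, while differences of HU and Thy-Noc from DMSO in these same libraries were known. The calls below therefore describe these libraries, and nothing about the family as a whole is read from them.

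The libraries came from Raji, an established human B-lymphoma line derived from a Burkitt lymphoma, and poly(A) RNA was sequenced from a stranded mRNA kit. The groups were hydroxyurea (HU), thymidine followed in the label by nocodazole (Thy-Noc), and DMSO, the solvent control, with 3 libraries each. HU depletes deoxynucleotides by inhibiting ribonucleotide reductase and slows replication forks, excess thymidine also blocks DNA synthesis, and nocodazole depolymerises microtubules and arrests cells in mitosis. Neither dose nor duration is given in the sources used here. All libraries come from 1 cell line, and the labels do not say that replicates were separate cultures, so p-values measure only the spread between libraries, and that spread may be technical.

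HMGB proteins carry a pair of HMG boxes that bend DNA and a long acidic tail, and HMGB1 also acts outside the cell as an alarm signal when it is released. HMGN proteins bind nucleosomes directly through a short conserved core and compete there with linker histone H1. HMGA1 binds AT-rich DNA in the minor groove through AT-hooks and is often abundant in proliferating and transformed cells. In translated main annotated transcripts, an uninterrupted acidic C-terminal run had 30 residues in HMGB1, 22 in HMGB2 and 20 in HMGB3. The nucleosome-binding core was found in HMGN1, HMGN2, HMGN4 and HMGN5. The letters GRP, the core of an AT-hook, were found 3 times in HMGA1 and 1 time in HMGB2. Only these letters were searched, so the match in HMGB2 is not read as an AT-hook.

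The HMGN core is shown as coding sequence because HMGN4, which was level in HU, and a processed pseudogene, which was lower in HU, are both copies of HMGN2, which was lower. Each line gives 42 bases around the core, 5′ to 3′ on the coding strand, from GENCODE release 29 transcripts (GRCh38), and capitals mark bases that differ from HMGN2.
HMGN2: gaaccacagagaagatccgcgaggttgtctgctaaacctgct
HMGN2P5: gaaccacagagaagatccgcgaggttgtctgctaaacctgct
HMGN4: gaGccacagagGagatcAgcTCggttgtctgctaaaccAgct
HMGN1: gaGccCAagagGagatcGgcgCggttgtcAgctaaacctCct
HMGN5: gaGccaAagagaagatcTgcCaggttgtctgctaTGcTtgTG
In HMGN2 the stretch spans 3 coding exons at chr1:26473525-26474093 on the plus strand. HMGN2P5, a pseudogene copied from spliced mRNA, has it in 1 piece at chr15:29730770-29730811 (plus strand) with 0 differences. HMGN4 has it within its single coding exon at chr6:26545264-26545305 (plus strand) with 6 differences. HMGN1 at chr21:39348331-39348547 and HMGN5 at chrX:81118477-81119790, both on the minus strand, have it over 3 coding exons each with 8 and 9 differences. Over the whole coding sequence of 270 bases, HMGN4 and HMGN2 were identical at 233 positions (86.3%).

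Library totals ran from 74940755 to 110485145 counts, and 11346 genes were tested. Values are given as CPM, the count divided by TMM-scaled library size. Many genes in this table were unsteady, with libraries of 1 group differing at least 10-fold for 16.2% of tested genes, whereas the largest such difference for any of the 8 HMG genes was 1.60-fold (HMGA1 in DMSO). All 7 B-cell markers searched were tested and their summed level was 1644 to 2366 CPM in HU, 1643 to 2602 CPM in Thy-Noc and 1864 to 2317 CPM in DMSO. The myeloid markers LYZ and ITGAM had counts of at most 73 and 264 in any library and were too low to test; markers of T cells, erythroid cells and epithelium are not analysed here.

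HMG mRNAs were abundant in Raji. Together the 8 took 0.404%, 0.394% and 0.481% of all counts in the HU libraries, 0.633%, 0.620% and 0.640% in Thy-Noc and 0.670%, 0.680% and 0.635% in DMSO. The 3 HU libraries lay below the 6 others. By mean CPM over groups, HMGN1 ranked 53 among tested genes, HMGB1 80, HMGA1 118 and HMGN2 140, while HMGB3, HMGN5 and HMGN4 ranked 3255, 3581 and 4183.

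On a per-length scale, CPM per kilobase of the main annotated transcript, the order of levels in DMSO was HMGN1 (1605 ± 109, mean ± SD, n = 3), HMGN2 (916 ± 217), HMGA1 (523 ± 125), HMGB1 (324 ± 21.1), HMGB2 (193 ± 17.1), HMGN4 (25.9 ± 0.129), HMGN5 (23.8 ± 2.05) and HMGB3 (14.6 ± 0.999). HMGN4 and HMGN5 overlapped over libraries and the other neighbours did not. Thy-Noc had the same order. In HU the order was also the same by mean, but HMGN2 (382 ± 25.8) then overlapped HMGA1 (371 ± 25.5), HMGB1 (156 ± 28.6) overlapped HMGB2 (116 ± 20.3), and HMGN5 (10.6 ± 0.992) overlapped HMGB3 (9.75 ± 0.704). The order depends on the transcript taken as the gene's length, 5485 bases for HMGB1 against 1191 for HMGN2, and which transcripts the authors counted is unknown here.

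**Figure D1:**
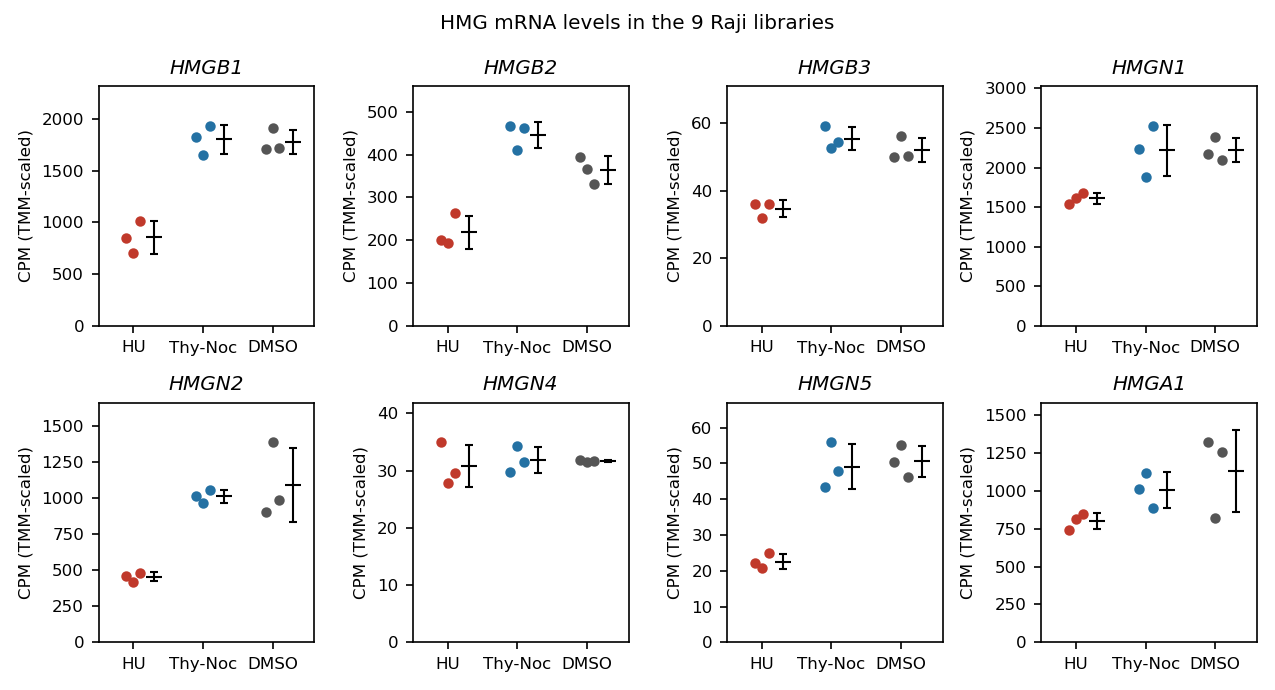
CPM of each HMG gene in the HU, Thy-Noc and DMSO libraries, 1 panel per gene with its own axis from 0; dots are libraries, and the bar beside them is the mean with SD (n = 3). HMGB1, HMGB2, HMGB3, HMGN1, HMGN2 and HMGN5 are lower in all 3 HU libraries than in the other 6, HMGN4 is level at 27.7 to 34.9 CPM, and HMGA1 is spread in DMSO.

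In HU, transcripts of the tested DNA-bending HMGB proteins and of some nucleosome-binding HMGN proteins were lower than in DMSO. Of the 8 tested genes, 5 were lower past the threshold of an adjusted p of 0.05 (HMGB1, HMGB2, HMGB3, HMGN2 and HMGN5) and 0 were higher. Of all tested genes 1.56% were lower past it and 3.56% lower or higher; an unadjusted p under 0.05 was reached by 7 of the 8 and by 2405 of all 11346 tested genes. The median log2 fold change of the 8 was −0.66, beside 0.02 over all tested genes. HU and DMSO libraries did not overlap for 6 of the 8, all lower in HU, while 15.3% of tested genes had HU wholly below DMSO and 15.5% wholly above. In these bulk samples, fewer cells of a cell cycle stage and less RNA per cell cannot be told apart.

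HMGB1, the DNA-bending architectural factor and extracellular alarm signal, lies on the minus strand at chr13:30456704-30617597 (GRCh38, GENCODE release 29), with 8 transcripts in the annotation. Its HU libraries measured 845, 703 and 1017 CPM, against 1706, 1912 and 1717 CPM in DMSO. Every HU library was below every DMSO library, with replicate 2 the lowest. The log2 fold change was −1.06 ± 0.15 (SE), so that HU held 48.1% of the DMSO level, and edgeR's quasi-likelihood test gave an adjusted p of 0.0222 (Benjamini-Hochberg over all tested genes).

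HMGB2, a close relative that is prominent in dividing cells and is part of the SET complex, lies on the minus strand at chr4:173331695-173335125. Its values were 200, 193 and 262 CPM in HU and 394, 367 and 330 CPM in DMSO. The groups did not overlap, and HU replicate 3 was the highest of its group. HU held 60.0% of the DMSO level (log2 fold change −0.74 ± 0.14, edgeR adjusted p 0.0412). HMGB2 was called in 1 of the 9 fits that left out 1 library.

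HMGB3, on the X chromosome (plus strand, chrX:150980509-150990775) and known for a role in blood progenitors in mouse, was much less abundant. Its levels were 36.2, 31.8 and 36.1 CPM in HU and 49.9, 56.2 and 50.3 CPM in DMSO. The groups did not overlap, and the difference was the smallest of the 3 HMGB genes (log2 fold change −0.59 ± 0.11, edgeR adjusted p 0.0408). HMGB3 was called in 0 of the 9 fits that left out 1 library (edgeR adjusted p from 0.0528 to 0.139). The coding sequences of HMGB2 and HMGB3 were 78.2% and 73.6% identical to that of HMGB1 over the aligned bases.

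HMGN2, the nucleosome-binding protein whose sequence opens the alignment above, lies on the plus strand at chr1:26472450-26475972 and had the lowest fold change of the 8. Its HU libraries measured 463, 421 and 481 CPM, against 904, 1385 and 983 CPM in DMSO. HU libraries were close together, and DMSO replicate 2 stood above the other 2 DMSO libraries. The log2 fold change was −1.26 ± 0.16, or 41.7% of the DMSO level in HU (edgeR adjusted p 0.0194). Without DMSO replicate 2 it was −1.04 and was still called (edgeR adjusted p 0.0222).

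HMGN5, an X-linked member with a long acidic C-terminal part (minus strand, chrX:81113701-81201942; 36.2% of its translated residues were acidic), was low in level but differed about as much. It had 22.1, 20.7 and 24.8 CPM in HU and 50.4, 55.0 and 46.3 CPM in DMSO. The groups lay far apart relative to their spread, with a log2 fold change of −1.17 ± 0.14 and an edgeR adjusted p of 0.0170.

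HMGN1, encoded on chromosome 21 in the segment linked to Down syndrome (minus strand, chr21:39342315-39349647), was the most abundant HMG mRNA. Its levels were 1541, 1618 and 1674 CPM in HU and 2171, 2389 and 2098 CPM in DMSO. The groups did not overlap, yet the gene did not pass (log2 fold change −0.46 ± 0.12, 95% interval −0.74 to −0.18, edgeR adjusted p 0.0847). DESeq2 called it (adjusted p 0.00293), but DESeq2 called 2135 genes in all, against 404 by edgeR. HMGN1 was called in 1 of 22 alternative settings and in 0 of the 9 fits that left out 1 library. As HMGN2 was lower by more, the ratio of HMGN1 to HMGN2 CPM was 3.33, 3.84 and 3.48 in HU and 2.40, 1.73 and 2.13 in DMSO.

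HMGN4, which arose as a retrotransposed copy of HMGN2 and has 1 coding exon (plus strand, chr6:26538405-26546254), showed no such difference. It had 34.9, 27.7 and 29.7 CPM in HU and 31.8, 31.5 and 31.8 CPM in DMSO. HU libraries lay on both sides of the tightly grouped DMSO libraries. The log2 fold change was −0.04 ± 0.13, with a 95% interval of −0.34 to 0.25 that lies wholly above that of HMGN2, −1.65 to −0.88 (edgeR adjusted p 0.909 for HMGN4). The ratio of HMGN2 to HMGN4 CPM was accordingly 13.3, 15.2 and 16.2 in HU, against 28.4, 43.9 and 31.0 in DMSO. No test was run on this ratio.

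HMGA1, the AT-hook protein (plus strand, chr6:34236873-34246231), was not called. Levels were 740, 815 and 847 CPM in HU and 1317, 822 and 1252 CPM in DMSO. DMSO replicate 2 fell inside the HU range, and the log2 fold change was −0.50 ± 0.19 (95% interval −0.94 to −0.06, edgeR adjusted p 0.189). Without that library it was −0.67 ± 0.12 and still did not pass (edgeR adjusted p 0.0896). HMGN2 was highest in this same DMSO library.

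The 5 calls depended on which libraries were in the fit, while their direction did not. As every HU library lay below every DMSO library for these 5 genes, leaving out 1 library could hardly reverse it. When each library was left out in turn, edgeR called 0 of the 5 without DMSO replicate 3 or without HU replicate 1, 1 (HMGN2) without DMSO replicate 1 or without DMSO replicate 2, and 3 without each of HU replicate 2, HU replicate 3 and Thy-Noc replicates 1, 2 and 3. By gene, HMGN2 was called in 6 of these 9 fits, HMGB1 and HMGN5 in 5 each, HMGB2 in 1 and HMGB3 in 0. Over all 22 alternatives the log2 fold changes of the 5 stayed between −1.38 and −0.48. Fitting only the 6 HU and DMSO libraries called 0 of the 5. Total-count scaling or no filter on low counts called 3 each (HMGB1, HMGN2 and HMGN5). DESeq2 called all 5 and HMGN1, and limma called the same 5. The number called over all genes moved too. It was 404 in the reported fit, 2135 by DESeq2, 546 to 573 by limma and 21 to 318 with 1 library left out. It was 51 in the fit of 6 libraries, 373 with total-count scaling and 220 with no filter.

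**Figure D2:**
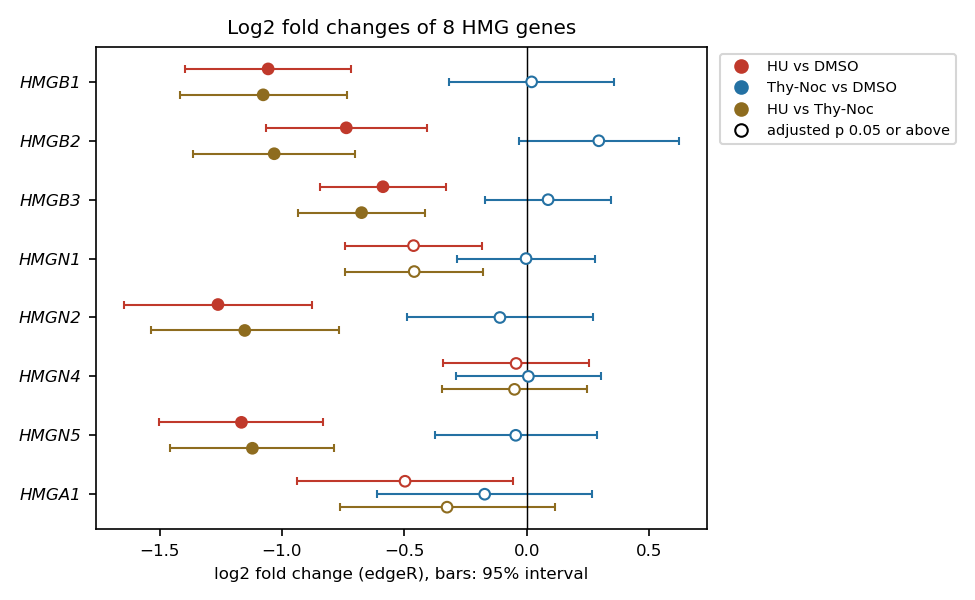
Log2 fold changes of the 8 HMG genes (horizontal axis) from the edgeR fit for HU vs DMSO, Thy-Noc vs DMSO and HU vs Thy-Noc, with 95% intervals; filled points passed an adjusted p of 0.05. Both HU comparisons have the same 5 filled points below 0, and every Thy-Noc vs DMSO interval includes 0.

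In Thy-Noc the HMG genes stayed near DMSO. By edgeR 0 of the 8 passed, with 0 at an unadjusted p under 0.05 and 0 by DESeq2 or limma. Of all tested genes edgeR called 0.00881% lower, 0.0264% higher and 0.0353% either. Over the whole table DESeq2 called 179, limma called 7 to 12, and 510 genes had an unadjusted edgeR p under 0.05. The median log2 fold change was 0.00, beside 0.01 over all tested genes, and log2 fold changes ran from −0.17 ± 0.19 for HMGA1 to 0.29 ± 0.14 for HMGB2. Each 95% interval included 0; that of HMGN1 was −0.28 to 0.28 and that of HMGN4 was −0.29 to 0.30, while that of HMGA1 was as wide as −0.61 to 0.27.

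HMGB2 was the only HMG gene whose Thy-Noc and DMSO libraries did not overlap, at 467, 411 and 461 CPM in Thy-Noc against 394, 367 and 330 CPM in DMSO, while 5.18% of all tested genes had Thy-Noc wholly above DMSO and 4.79% wholly below. All 3 Thy-Noc libraries were above the highest DMSO library, but the gene did not pass (95% interval −0.03 to 0.62, edgeR adjusted p 0.9998). HMGB1 had 1828, 1651 and 1931 CPM in Thy-Noc, overlapping its DMSO values of 1706, 1912 and 1717 CPM. HMGB1 thus stood at 3.92, 4.02 and 4.19 times HMGB2 in Thy-Noc CPM and 4.33, 5.21 and 5.20 times in DMSO CPM.

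Set directly against Thy-Noc, HU again had lower transcripts of the tested HMGB genes and of some HMGN genes. HMGB1, HMGB2, HMGB3, HMGN2 and HMGN5, 5 of 8, passed again in this direction and 0 in the other, where 1.06% of all tested genes were lower, 0.696% higher and 1.75% either. The median log2 fold change of the 8 was −0.85 beside 0.01 over all tested genes. Libraries did not overlap for 7 of the 8, all lower in HU, while 12.0% of tested genes had HU wholly below Thy-Noc and 12.9% wholly above. This comparison uses the same HU libraries as the comparison with DMSO, so it is not a separate observation of HU.

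HMGB2 measured 200, 193 and 262 CPM in HU against 467, 411 and 461 CPM in Thy-Noc (log2 fold change −1.03 ± 0.14, edgeR adjusted p 0.0300), beside −0.74 against DMSO. HMGB1 had a log2 fold change of −1.08 ± 0.15, HMGN2 of −1.15 ± 0.16, HMGN5 of −1.12 ± 0.14 and HMGB3 of −0.67 ± 0.11, with edgeR adjusted p from 0.0238 to 0.0385. HMGN2 libraries measured 463, 421 and 481 CPM in HU, with 1016, 963 and 1053 CPM in Thy-Noc. HMGN5 had 22.1, 20.7 and 24.8 CPM in HU and 43.5, 55.8 and 47.8 CPM in Thy-Noc. For both genes every HU library lay below every Thy-Noc library.

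HMGN1 did not pass against Thy-Noc (1541, 1618 and 1674 CPM in HU against 2236, 1886 and 2524 CPM in Thy-Noc; log2 fold change −0.46 ± 0.12, edgeR adjusted p 0.105), and DESeq2 called it (adjusted p 0.00377). HMGA1 had 740, 815 and 847 CPM in HU and 1010, 1116 and 884 CPM in Thy-Noc, a log2 fold change of −0.33 ± 0.19 (edgeR adjusted p 0.408). HMGN4 was again level, at −0.05 ± 0.13 with a 95% interval of −0.35 to 0.25. With single libraries left out, edgeR called 0 of the 5 genes without DMSO replicate 3, HU replicate 1, Thy-Noc replicate 2 or Thy-Noc replicate 3, 1 without DMSO replicate 1 (HMGN2), HU replicate 2 (HMGB1) or Thy-Noc replicate 1 (HMGN5), and 2 without DMSO replicate 2 (HMGN2 and HMGN5) or HU replicate 3 (HMGB1 and HMGB2). Fitting only the 6 HU and Thy-Noc libraries called 1 (HMGN2), and total-count scaling and no filter called 3 each. Log2 fold changes of the 5 lay between −1.22 and −0.53 over the 22 alternatives. Over all genes, 199 were called in the reported fit, 1826 by DESeq2 and 1 to 103 with 1 library left out. The fit of 6 libraries called 18, total-count scaling 157 and no filter 64.

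HMGB1, HMGN1 and HMGN2 have many processed pseudogenes, intronless copies of their mRNA, and short reads from such copies can be hard to place. The table held 22 pseudogenes named after HMGA1, HMGB1, HMGN1 or HMGN2. Of these, 17 were too low to test, with a mean count of at most 66.1, and 5 were tested. HMGB1P5 (chr3:22381819-22382929, plus strand) was 99.2% identical to the HMGB1 main transcript over 971 aligned bases, HMGB1P6 98.6% over 645 and HMGB1P10 97.3% over 563. HMGN2P5 (chr15:29730713-29730985, plus strand) differed from HMGN2 at 1 of 273 bases, with 272 identical, and HMGN1P38 was 98.3% identical to HMGN1 over 303.

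These copies had the pattern of their parents. HMGB1P5 measured 124, 120 and 145 CPM in HU and 267, 290 and 275 CPM in DMSO, which was 14.7%, 17.0% and 14.3% of the HMGB1 count in HU and 15.6%, 15.2% and 16.0% in DMSO. HU was below DMSO in every library, while the share of the HMGB1 count was similar in both groups. HMGN2P5 had 9.66, 10.3 and 11.1 CPM in HU and 22.5, 24.4 and 22.4 CPM in DMSO. Of the 5 copies, 4 were lower in HU than in DMSO, with log2 fold changes of −1.10 ± 0.10 for HMGB1P5, −1.08 ± 0.11 for HMGB1P6, −1.16 ± 0.19 for HMGB1P10 and −1.16 ± 0.14 for HMGN2P5 (edgeR adjusted p from 0.00988 to 0.0284). HMGN1P38 did not pass (−0.58 ± 0.22, edgeR adjusted p 0.193), as its parent did not.

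Whether the reads assigned to a copy came from it or from its parent was not tested. The copies are therefore not read as observations separate from their parents. With all pseudogene counts added to their parent, an alternative chosen after seeing the data, the same 5 genes were called in HU against DMSO, with HMGB1 at −1.06 and HMGN2 at −1.26. HMGB2, HMGB3 and HMGN5 had no pseudogene to add, and the tested copies of HMGB1 and HMGN2 had the pattern of their parents. This alternative therefore could not show whether read placement affected the calls. 

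**Figure D3:**
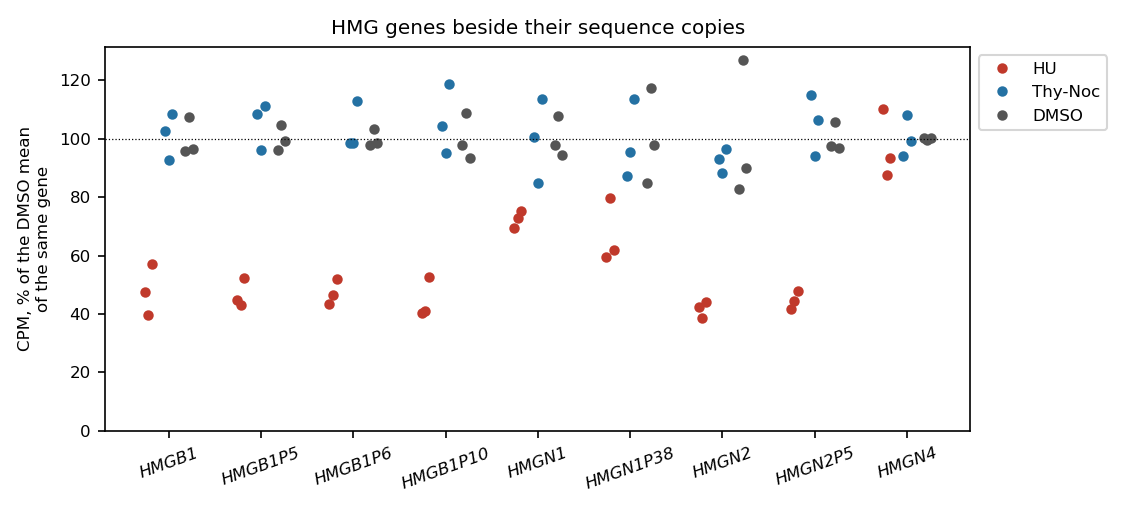
CPM of HMGB1, HMGN1, HMGN2 and their tested sequence copies in each library, as a percentage of the DMSO mean of the same gene (vertical axis from 0, dotted line at 100); colours mark HU, Thy-Noc and DMSO. HU dots of HMGB1, HMGN2 and 4 of their pseudogenes lie together below the other groups, and those of HMGN4 lie around the line.

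Promoters are shown for 4 genes lower in HU and for HMGN4, because these 4 differed together and HMGN4 did not. Each runs from 250 bases before to 50 bases after the RefSeq start (GRCh38.p14), 5′ to 3′ on the gene's strand, and capitals mark 3 motifs searched on both strands: CCAAT, which reads ATTGG on the opposite strand; the E-box CACGTG, which reads the same on both; and TTTGAA, which reads TTCAAA on the opposite strand and is a core of the cell cycle homology region.
HMGB1 (chr13:30465887-30466186, minus strand): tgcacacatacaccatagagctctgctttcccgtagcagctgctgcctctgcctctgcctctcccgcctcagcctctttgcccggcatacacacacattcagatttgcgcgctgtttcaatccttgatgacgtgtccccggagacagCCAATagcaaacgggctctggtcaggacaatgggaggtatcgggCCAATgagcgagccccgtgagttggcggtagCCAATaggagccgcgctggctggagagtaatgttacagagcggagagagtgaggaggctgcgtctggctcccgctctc
HMGB3 (chrX:150983085-150983384, plus strand): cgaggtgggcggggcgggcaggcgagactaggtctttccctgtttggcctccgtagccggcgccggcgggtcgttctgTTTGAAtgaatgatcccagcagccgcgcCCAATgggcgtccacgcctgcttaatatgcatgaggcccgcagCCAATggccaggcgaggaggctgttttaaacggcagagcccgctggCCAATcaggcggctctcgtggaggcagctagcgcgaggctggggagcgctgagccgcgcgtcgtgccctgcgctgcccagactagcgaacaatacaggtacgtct
HMGN2 (chr1:26472190-26472489, plus strand): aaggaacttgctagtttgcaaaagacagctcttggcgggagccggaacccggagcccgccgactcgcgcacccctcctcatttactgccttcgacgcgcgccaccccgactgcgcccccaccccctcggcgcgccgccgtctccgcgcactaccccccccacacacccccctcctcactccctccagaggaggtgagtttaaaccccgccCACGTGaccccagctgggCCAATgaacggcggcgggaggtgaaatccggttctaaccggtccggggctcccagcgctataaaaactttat
HMGN5 (chrX:81201864-81202163, minus strand): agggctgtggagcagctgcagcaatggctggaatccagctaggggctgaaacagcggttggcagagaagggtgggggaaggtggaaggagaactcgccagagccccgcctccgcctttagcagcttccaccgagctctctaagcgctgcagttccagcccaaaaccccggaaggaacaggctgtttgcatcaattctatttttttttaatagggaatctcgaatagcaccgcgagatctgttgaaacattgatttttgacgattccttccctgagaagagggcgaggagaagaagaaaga
HMGN4 (chr6:26538116-26538415, plus strand): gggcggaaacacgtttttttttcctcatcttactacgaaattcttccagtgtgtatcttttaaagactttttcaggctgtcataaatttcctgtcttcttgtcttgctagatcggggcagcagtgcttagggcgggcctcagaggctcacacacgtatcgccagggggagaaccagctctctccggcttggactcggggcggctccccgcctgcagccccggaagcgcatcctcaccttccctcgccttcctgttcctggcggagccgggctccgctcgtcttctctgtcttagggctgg
A promoter was matched for 7 of the 8 genes; HMGB2 is the other. CCAAT was found in 5 of the 7, beside 35.7% of 27305 promoters of the same length: 3 times each in HMGB1 and HMGB3, 2 times in HMGN1 and 1 time each in HMGN2 and HMGA1. It was not found in HMGN5, which was lower in HU, or in HMGN4, which was not. CACGTG was found in HMGN2 alone (7.43% of promoters) and TTTGAA in HMGB3 alone (15.4%). These matches describe the windows and do not separate the genes that passed from those that did not. Only 1 start per gene was taken, and other annotated starts were not searched. The HMGB1 window, for example, lies inside the annotated gene at chr13:30456704-30617597.

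Related gene lists were examined in the same fit, and each is described by its counts and median. A list was drawn up for the SET complex, the chaperone and nuclease assembly that contains HMGB2, together with related genes. In this list 3 of 9 tested genes were lower in HU than in DMSO and 0 were higher, with a median log2 fold change of −0.32. These counts pool complex members with the related genes and are not counts for the complex alone. Of all tested genes, 1.56% were lower. ANP32B and ANP32E, acidic histone chaperones, had log2 fold changes of −0.82 ± 0.09 and −0.88 ± 0.15, and ANP32A, an inhibitor of protein phosphatase 2A, of −0.54 ± 0.08 (edgeR adjusted p from 0.0126 to 0.0318). SET itself was unsteady, with counts from 44 to 57033, and did not pass (edgeR adjusted p 0.805). The count of 3 moved between 0 and 4 as single libraries were left out.

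Of 21 other tested proteins with an HMG box, 1 was lower and 0 were higher in HU than in DMSO, with a median of −0.10. An unadjusted p under 0.05 was reached by 4 of the 21, a share below that of all tested genes, 2405 of 11346. The called gene was NSD2, a histone H3 lysine 36 methyltransferase that also carries an HMG box (log2 fold change −0.60 ± 0.12, edgeR adjusted p 0.0483), and this call ended whichever of the 9 libraries was left out (edgeR adjusted p from 0.0514 to 0.153).

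Among HMGB1 receptors and partners, edgeR called 0 of 9 tested genes in HU against DMSO, DESeq2 called 1 and limma 0. An unadjusted p under 0.05 was reached by 1, and the median was −0.10. Of all tested genes, edgeR called 3.56% and 2405 of 11346 had an unadjusted p under 0.05. DESeq2 called 2135 genes in all. Of the linker histones, against which HMGN proteins compete, H1-10 alone was tested (0.47 ± 0.25, edgeR adjusted p 0.339), so the list has 0 calls by edgeR, DESeq2 and limma and 0 at an unadjusted p under 0.05. Counts over so few tested genes do not set either list apart from the shares over all genes. Linker histone mRNAs that are tied to replication mostly lack a poly(A) tail.

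Genes of G2 and mitosis, the part of the cycle in which HMGB2 mRNA is known to be high, numbered 22 tested. In HU against DMSO 5 were lower and 0 higher, with 12 at an unadjusted p under 0.05 and a median of −0.87. Of all tested genes, 1.56% were lower past the threshold and 2405 of 11346 had an unadjusted p under 0.05. CDC20, CENPF and CKS2 had log2 fold changes of −1.79 ± 0.24, −1.17 ± 0.15 and −1.06 ± 0.13 (edgeR adjusted p from 0.0165 to 0.0220). The count of 5 called genes moved between 0 and 5 as single libraries were left out. The summed level of the 22 was 1279 to 1767 CPM in HU, 2150 to 2795 CPM in Thy-Noc and 2394 to 2686 CPM in DMSO. Some of the 22 were unsteady as defined above, and the median and summed level include them. The part of cell cycle stage in the HMG values was not tested.

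**Figure D4:**
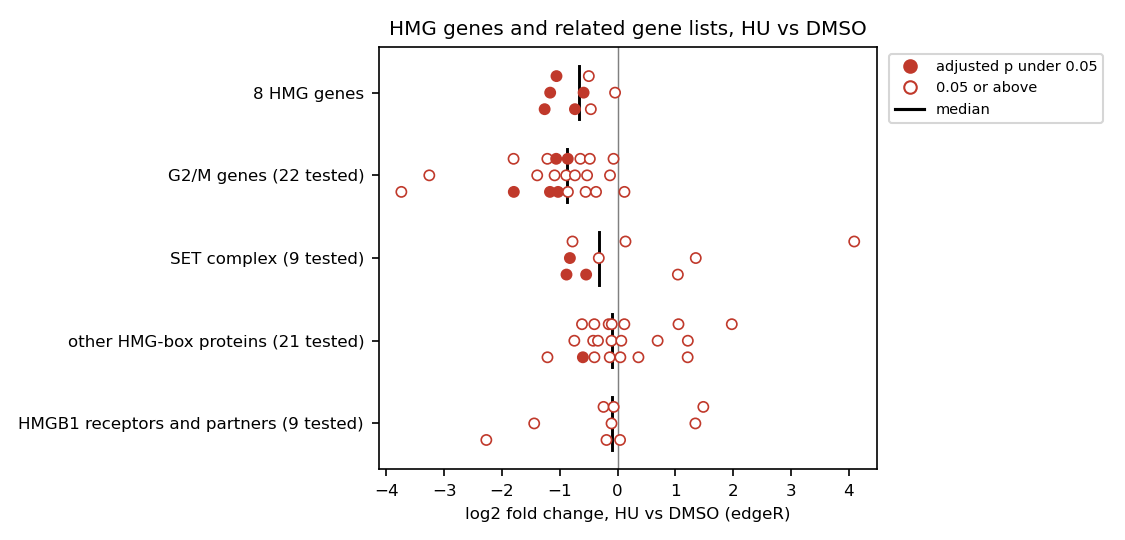
Log2 fold changes in HU vs DMSO (horizontal axis) of the 8 HMG genes and of 4 related lists; each dot is a gene, filled red where the edgeR adjusted p was under 0.05, and the black line is the list's median. HMG and G2/M genes sit mostly below 0, with medians of −0.66 and −0.87, while other HMG-box proteins lie around 0.

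For the 5 genes called, the tested genes with the most similar profile over the 9 libraries were listed by Pearson's r of log2(CPM + 0.5), as a description in which the 9 points form 3 groups. HMGB1 was nearest to MRPL1, a mitochondrial ribosomal protein (r = 0.992), CCNA2, cyclin A2 (0.992), and LEO1, a subunit of the PAF1 elongation complex (0.991). HMGB2 was nearest to GTSE1, a microtubule-associated protein of G2 and S phase (0.975), and LEO1 (0.971). HMGB3 was nearest to PPP1CC, a catalytic subunit of protein phosphatase 1 (0.990), CDC20 (0.989) and NOL7 (0.982). HMGN2 was nearest to RAVER1 (0.990), ALYREF, an mRNA export adaptor (0.988), and CPSF2, a subunit of the polyadenylation machinery (0.987). HMGN5 was nearest to NCAPH, a condensin subunit (0.979), NUCKS1 (0.978) and HAUS4, of the augmin complex (0.976).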

How the data were processed

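The authors deposited 1 table for 9 Raji mRNA libraries. It is titled CPM, yet the deposited values are expected counts by their form, whole numbers per gene with unequal library totals; no value is 0 and 274 genes stand at 1 in every library. Per the submitters' processing notes, FastQC, Trim Galore, STAR and DESeq2 were used with GRCh38; versions, counter, annotation and strandedness setting are unstated in the sources used here, so overlapping genes and near-identical copies are uncertain. Identifiers were matched to symbols (15393 of 15436).

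In R 4.3.3, edgeR 4.0.16 was run on genes reaching a CPM of 1 in 3 or more libraries, with TMM scaling, a single quasi-likelihood model of 3 groups (6 residual degrees of freedom), two-sided tests and Benjamini-Hochberg adjustment over 11346 genes. Standard errors come from the fold change and F statistic. Alternatives used limma 3.58.1 on log2(CPM + 0.5) and DESeq2 1.42.0. The edgeR fit was run on simulated counts, with a limit set only on the error of its fold changes. Recovered and false calls had no such limit. Precision is set more by the spread between libraries than by depth (median count 1187); chi-square per degree of freedom within groups was 930 to 1230, so no library repeats another of its group. Members and lists were chosen with earlier results of these data known. Named genes were all members, the 3 largest called changes per list and direction, and the 3 nearest profiles per called member; a nearest profile without a symbol is not named, and SET and H1-10 were named after their values were seen. Sequences came from RefSeq and GENCODE 29 tables and were aligned with Biopython 1.88.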

Additional observations from a re-analysis of the deposited data

How the results depend on the processing

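Both HU results kept their direction and changed their count of calls. For the 5 genes the groups did not overlap, so leaving out 1 library could hardly have reversed the direction. Of the 5 HMG genes lower in HU than in DMSO, 3 were called with total-count scaling, 3 with no filter, 0 in a fit of only the 6 libraries compared, and 0 to 3 when 1 library was left out. Of the 5 lower in HU than in Thy-Noc, the counts were 3, 3 and 1 in the same settings and 0 to 2 with 1 library left out. Apart from the replicate block below, the other alternatives called 5 or 6 in each. Total-count scaling moved the median of all genes to 0.12 (HU vs DMSO) and 0.16 (HU vs Thy-Noc).

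The deviations of same-numbered replicates were nearly uncorrelated (−0.04 to 0.04). With 16.2% of tested genes unsteady within a group, these correlations do not decide whether the numbers pair the libraries. With the replicate number as a block, 0 HMG genes were called in each comparison. Of all tested genes, the block fit called 9 in HU vs DMSO, 0 in Thy-Noc vs DMSO and 0 in HU vs Thy-Noc.

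Over all genes, HU vs DMSO called 404, against 220 with no filter, 2135 by DESeq2, 51 in the fit of 6 libraries, 721 without unsteady genes (an alternative chosen after seeing the data) and 21 to 318 with 1 library left out. Thy-Noc vs DMSO called 4, against 179 by DESeq2, 12, 7 and 12 by limma at pseudocounts of 0.5, 0.1 and 1, and 5 to 13 with 1 library left out. HU vs Thy-Noc called 199, against 64 with no filter, 313 with a CPM minimum of 5, 1826 by DESeq2, 326, 311 and 346 by limma at the same pseudocounts, 18 in the fit of 6 libraries, 472 without unsteady genes and 1 to 103 with 1 library left out. The cause of these moves was not tested.

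Values near 0 changed sign without a call. HMGN4 was 0.058 (HU vs DMSO), −0.035 (Thy-Noc vs DMSO) and 0.093 (HU vs Thy-Noc) with total-count scaling and −0.015 in Thy-Noc vs DMSO with upper-quartile scaling, where HMGB1 was −0.026 and −0.0037 in the same 2 settings. With 1 library left out, HMGN4 ran from −0.14 to 0.030 (HU vs DMSO), −0.046 to 0.054 (Thy-Noc vs DMSO) and −0.15 to 0.023 (HU vs Thy-Noc), and in Thy-Noc vs DMSO HMGB1 ran from −0.027 to 0.082, HMGN1 from −0.10 to 0.10, HMGN2 from −0.23 to 0.10 and HMGN5 from −0.15 to 0.036.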
